A study of Zea mays with 9 samples.

Results

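The interior block of maize chromosome 1 comprised the genes whose identifiers run from Zm00001d030000 to Zm00001d030800, a range of 801 numbers of which 478 had a row among the 38703 gene rows of the series. The members were chosen by number alone, because identifiers of this annotation are numbered along each chromosome. The deposited rows were ordered in 10 long runs of rising numbers. The block lay in the run from Zm00001d027230 to Zm00001d034962, between 35.8% and 46.2% of its length in numbers, away from both ends of the run. The rows carry no chromosome names or coordinates, so the chromosome was not checked. The rows do not pair identifiers with gene names, and 0 of the 478 members matched the annotation table at hand, so members are given by identifier.

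Chromatin accessibility had been measured by ATAC-seq in roots of seedlings of the maize inbred line B73, with 3 libraries at 0 h, 3 at 6 h and 3 at 12 h. The labels give tunicamycin in DMSO as the agent for all 9 libraries, the 0 h ones included, at 5 mg per ml without saying whether this was a stock or a final concentration. After germination the seedlings had grown for 7 days. Nuclei had been taken from frozen roots, although 1 label field names protoplasts. None of the 9 libraries is labelled as vehicle-only at a later time, so the effects of the drug and of elapsed time cannot be told apart. The series calls the libraries biological replicates. The labels do not say which plants or pools each came from, so p-values measure the spread between these libraries only.

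In ATAC-seq a transposase inserts sequencing adapters into DNA that is not wrapped tightly, so reads gather at open chromatin. Maize chromosomes are known for arms rich in genes and for long interiors around the centromere, where genes are sparse, repeats are dense and much of the chromatin is compact. Tunicamycin blocks N-linked glycosylation, which loads the endoplasmic reticulum with misfolded proteins. The comparison set here is whether genes of the block stood apart in accessibility, and whether they moved together under that stress. The place of the block relative to the centromere was not checked.

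Fewer identifier numbers of the block had a row, and the coverage of its rows was low. Of its numbers 59.7% had a row, against 73.4% in the stretch of 801 numbers before it, 73.7% in the stretch of 801 after it and 77.3% in the rest of the same run. In bins of 100 numbers, the 8 bins of the block held between 35 and 69 rows, and the 68 other full bins of the run held between 62 and 89, with a median of 78. Zm00001d030400 to Zm00001d030499 was the sparsest, with 35 rows. The largest step between consecutive members was 8 numbers. Stretches at the same relative place in the 9 other runs also had a lower share of numbers with a row than the rest of their run in 8 of 9 cases. Why a number has no row is not known from the sources used here, so this share is not a gene density.

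Median scaled coverage per bin was 697 and 689 read bases in the first 2 bins of the block, 466, 498, 388 and 506 in the 4 bins from Zm00001d030200 to Zm00001d030599, and 669 and 687 in the last 2. Those 4 middle bins were the lowest of the run. The 68 bins outside the block ranged from 646 to 1206, with a median of 835. Coverage is counted in read bases, in units of 73 that were taken as 1 read. The window counted for each gene is unknown, so differences in level between genes are not per length and may hold differences in window size.

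**Figure D1:**
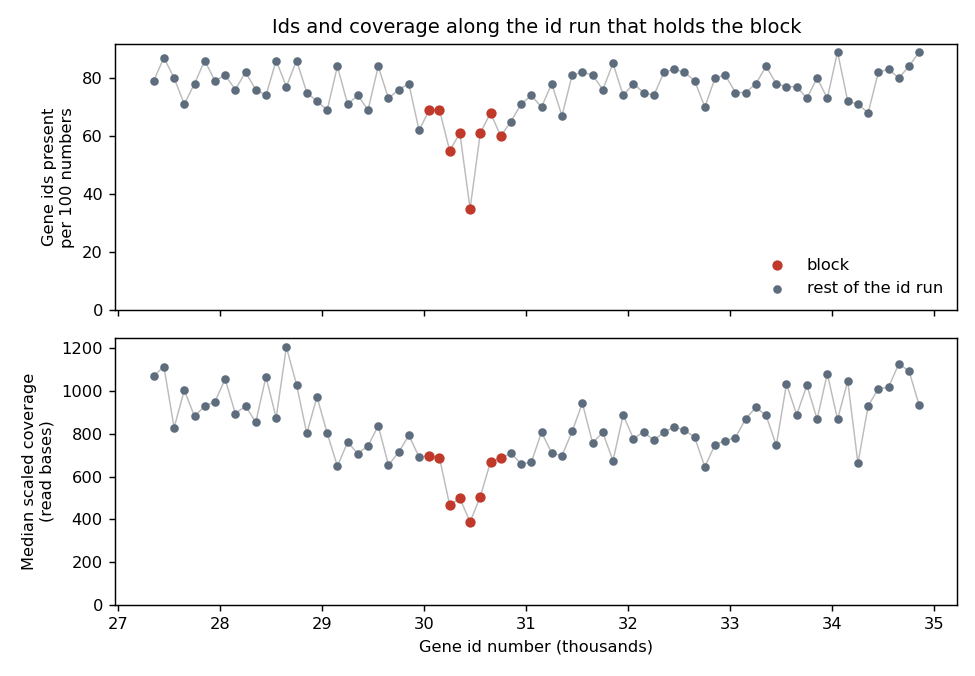
Rows present per 100 gene identifier numbers (top) and median coverage scaled between libraries, in read bases (bottom), for full bins along the identifier run that holds the block, plotted against identifier number. The 8 bins of the block (red) reach the lowest values of both, 35 rows and 388 read bases, against 62 rows and 646 read bases as the lowest of the 68 other bins (grey).

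Every library showed the lower level. The block's median was 536, 583 and 554 read bases in the 0 h libraries, 596, 586 and 611 at 6 h and 587, 562 and 563 at 12 h. All other rows had medians of 784, 791 and 789 at 0 h, 794, 793 and 787 at 6 h and 796, 796 and 788 at 12 h. The block thus reached between 68.5% and 77.6% of the level of the other rows. The library medians of the block did not overlap with those of the other rows, while single rows of both groups overlapped widely. The log2 difference was -0.41 ± 0.05 (SD, n = 9 libraries), lower in 9 of 9 (two-sided exact sign-flip permutation test, p = 0.00391, the smallest that 9 libraries allow). Against the stretch before, the difference was -0.31 ± 0.06 (SD, n = 9), and against the stretch after it was -0.34 ± 0.03 (SD, n = 9), with an exact p of 0.00391 for each (0.00391 adjusted over the 3 tests). These tests speak of the spread between libraries and not of the spread between genes. Among rows with a mean of at least 10 read units (730 read bases), which leaves out most members, the difference to other rows was -0.17. This filter acts on the compared level itself and cuts both groups at the same floor. It therefore cannot show how far the difference holds.

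Members differed from each other about as widely as other rows did. Their mean coverage ran from 7.66 to 2473 read bases, with quartiles at 344 and 910 and a median of 589, or 8.07 read units. Other rows had quartiles at 497 and 1209 and a median of 803, or 11.0 read units. The SD of log2 levels was 0.89 over members and 0.92 over other rows. A mean of at least 730 read bases was reached by 174 members (36.4%) and by 55.7% of other rows. Means of 2000 or more were seen in 5 members (1.05%) and in 4.35% of other rows, and means under 200 in 50 members (10.5%) and in 5.81% of other rows.

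Coverage of 0 in at least 1 library was found in 53 members (11.1%) and in 5.16% of other rows. In single libraries between 5 and 16 members were at 0. The highest member was Zm00001d030005, with a mean of 2473, followed by Zm00001d030069 with 2349. The lowest was Zm00001d030277, which held 73 read bases, 1 read unit, in 12 h replicate 1 and 0 in the other 8 libraries. At the edges of the range, Zm00001d030001 and Zm00001d030797, the first and last members, averaged 1165 and 480 read bases, and the rows just outside, Zm00001d029999 and Zm00001d030801, averaged 857 and 647.

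Members had fewer direct neighbours, which a lower share of numbers with a row brings with it, so this is not a separate trait. Both adjacent numbers were present for 189 members (39.5%), against 61.8% of other rows, and neither for 59 members (12.3%), against 5.32%. Median coverage was 522 read bases in members with neither adjacent number, 615 with 1 and 570 with both. In other rows it was 668, 768 and 833.

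The block's share of all coverage was highest in the 6 h libraries. Its summed coverage was 0.897%, 0.883% and 0.875% of the total in the 0 h libraries, 0.933%, 0.915% and 0.954% at 6 h and 0.907%, 0.898% and 0.891% at 12 h. All 6 h libraries lay above all others, while 12 h overlapped with 0 h. The share averaged 0.885% ± 0.0113 at 0 h, 0.934% ± 0.0194 at 6 h and 0.898% ± 0.00807 at 12 h (SD, n = 3 each). With all 9 libraries it differed among the 3 times (exact permutation p = 0.00714, 0.0286 adjusted over the 4 tests of this share). The difference of 6 h from 0 h was 0.0485 percentage points, 5.48% of the 0 h share (two-sided exact permutation p = 0.1, the smallest that 3 against 3 allows, adjusted 0.133). At 12 h against 6 h the difference was -0.0352 points (exact permutation p = 0.1, adjusted 0.133), and at 12 h against 0 h it was 0.0134 points (exact permutation p = 0.2, adjusted 0.2). The result among times depended on single libraries: with 1 of the 9 left out, the adjusted exact permutation p was under the threshold of 0.05 without 6 h replicate 1 or 6 h replicate 2 (0.0286 each) and above it without any of the other 7, at up to 0.2 without 0 h replicate 3.

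Total coverage and the weight of rows with low coverage also differed between times. Totals ranged from 28.9 to 39.1 megabases, and those at 6 h were the lowest of the series. Other rows with a mean under 730 read bases held 20.8% ± 0.276 of coverage at 0 h, 21.8% ± 0.452 at 6 h and 21.8% ± 0.0822 at 12 h (SD, n = 3 each), so they were as high at 12 h as at 6 h. Within the rows under 730 the block's share was 1.59% ± 0.00673 at 0 h, 1.69% ± 0.0373 at 6 h and 1.60% ± 0.0393 at 12 h (SD, n = 3 each). The 6 h libraries lay above the 0 h libraries by 0.103 points on average, without overlap (exact permutation p = 0.1, the smallest possible, adjusted 0.133). Among the 3 times this share did not pass after adjustment (exact permutation p = 0.0286, adjusted 0.114). Within the rows of 730 or more, the block's share of 0.718% ± 0.0164 at 6 h and 0.697% ± 0.0127 at 0 h (SD, n = 3 each) overlapped (exact permutation p = 0.2, adjusted 0.267), and among the 3 times the exact permutation p there was 0.171, adjusted 0.267. The part of total depth in the difference was not tested.

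The share of each flanking stretch overlapped between 6 h and 0 h. The stretch before the block held 1.41% ± 0.0202 at 6 h and 1.38% ± 0.00269 at 0 h (among the 3 times, exact permutation p = 0.0214, adjusted 0.0857), and the stretch after it 1.43% ± 0.0247 at 6 h and 1.41% ± 0.0207 at 0 h (SD, n = 3 each; exact permutation p = 0.468 among times, adjusted 0.8). At 12 h the stretch before held 1.37% ± 0.00372 (SD, n = 3), below both other times without overlap. Its difference of 12 h from 6 h was -0.0320 points (exact permutation p = 0.1, adjusted 0.133). The stretch after held 1.41% ± 0.0173 at 12 h (SD, n = 3) and overlapped with both other times. Whether the block's change differed from that of either flanking stretch was not tested. The stretches at the same relative place in the 9 other runs, added after the block's share had been seen, together held 6.65% ± 0.0340 at 0 h, 6.91% ± 0.0186 at 6 h and 6.78% ± 0.0452 at 12 h (SD, n = 3 each). They differed among the times (exact permutation p = 0.00357, adjusted 0.0143), and the mean of each of the 9 was higher at 6 h than at 0 h, by 1.75% to 6.99% of its 0 h share. In 6 of the 9 all 6 h libraries lay above all 0 h libraries, and in the other 3 they overlapped. In all 9 the median coverage was below that of the rest of the run, at 534 to 781 read bases. Taken as a part of these 10 stretches, the block held 11.7% to 12.2% in the 6 h libraries and 11.7% to 11.8% in the 0 h libraries, and the share did not pass the test among times (exact permutation p = 0.271, adjusted 0.5). The rest of the block's own run held 14.6% ± 0.0328 at 6 h and 14.7% ± 0.0282 at 0 h (SD, n = 3 each), every 6 h library below every 0 h library (exact permutation p = 0.1, the smallest possible). At 12 h it held 14.8% ± 0.0301 (SD, n = 3), above both other times without overlap, and it differed among the times (exact permutation p = 0.00357, adjusted 0.0143).

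**Figure D2:**
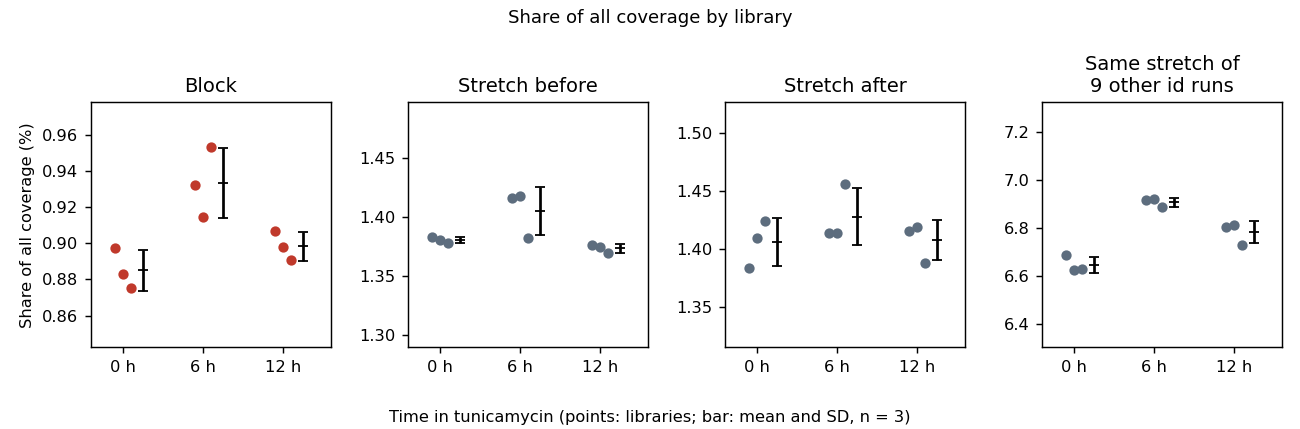
Share of all coverage (%) held by the block, by the equally long stretches of numbers before and after it, and by the same relative stretch of the 9 other identifier runs, at 0 h, 6 h and 12 h. Points are libraries and bars are mean and SD (n = 3). Axes do not start at 0, and 6 h lies above 0 h without overlap in the block and in the sum of the 9 other stretches.

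All 8 bins had a higher mean share at 6 h than at 0 h, by 0.435% to 11.2% of the 0 h share, and in 2 of them, Zm00001d030300 to Zm00001d030399 and Zm00001d030500 to Zm00001d030599, all 6 h libraries lay above all 0 h libraries. Of the 68 other bins of the run, 34 had a higher mean share at 6 h, and 7 did so without overlap. Flanking bins were mostly higher too. In the 8 bins directly before the block the change ran from -0.511% to 4.75% of the 0 h share. In the 8 bins directly after it, the change ran from -0.184% to 5.56%. At 12 h against 0 h, 6 of the 8 bins of the block and 36 of the 68 others were higher.

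No single member passed the test across all rows. Limma on log2(scaled coverage + 73) called 0 of the 478 members at an adjusted p under 0.05 in each of the 3 comparisons, where it also called 0 of the 38703 rows (0%). At an unadjusted p under 0.05 there were 44 members (9.21%) for 6 h against 0 h, where the background was 6.39% of all rows. They were 26 higher (5.44%, background 2.86%) and 18 lower (3.77%, background 3.53%). For 12 h against 0 h there were 23 members (4.81%, background 5.37%), 15 higher (3.14%, background 2.66%) and 8 lower (1.67%, background 2.71%). For 12 h against 6 h there were 32 (6.69%, background 6.73%), 11 higher (2.30%, background 3.5%) and 21 lower (4.39%, background 3.23%). At any time it was 38 members (7.95%, background 6.52%), with 0 called after adjustment.

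More members lay above 0 than below it at 6 h. Their median log2 change was 0.07 for 6 h against 0 h, where all rows had -0.01, and 263 of 478 (55.0%) were above 0, against 49% of all rows. Without 0 h replicate 1 the median was 0.0373, and without 0 h replicate 2 it was 0.0383. In 45 members (9.41%) all 6 h libraries lay above all 0 h libraries, where the background was 5.35%, and in 16 (3.35%) all lay below, where it was 5.66%. The median was 0.13 among the 304 members with a mean under 730 read bases and -0.04 among the 174 above, against 0.03 and -0.03 in other rows of the same levels. For 12 h against 0 h the members' median was 0.01 and 51.3% were above 0 (background 49.8%), and for 12 h against 6 h the median was -0.04 and 46.2% were above 0 (background 50.9%). All 12 h libraries lay above all 0 h libraries in 29 members (6.07%, background 5.59%) and below them in 18 (3.77%, background 5.69%). They lay above all 6 h libraries in 18 members (3.77%, background 5.63%) and below them in 30 (6.28%, background 5.6%). The comparisons share libraries, so they are not independent of each other.

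Changes were scattered and imprecise. For 6 h against 0 h they ran from -1.49 to 1.57, with an SD over members of 0.46, against 0.38 over other rows. A member's change had a median standard error of 0.38, and that of other rows was 0.32, and most changes were smaller than their own error. Changes of 1 or more in size were fitted for 18 members (3.77%) at 6 h against 0 h (background 1.6%), 12 (2.51%) at 12 h against 0 h (background 1.29%) and 14 (2.93%) at 12 h against 6 h (background 1.64%). These backgrounds are all rows and not rows of like level. For 6 h against 0 h the SD under a mean of 730 read bases was 0.52 in members and 0.46 in other rows. At 730 or more it was 0.33 and 0.30.

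**Figure D3:**
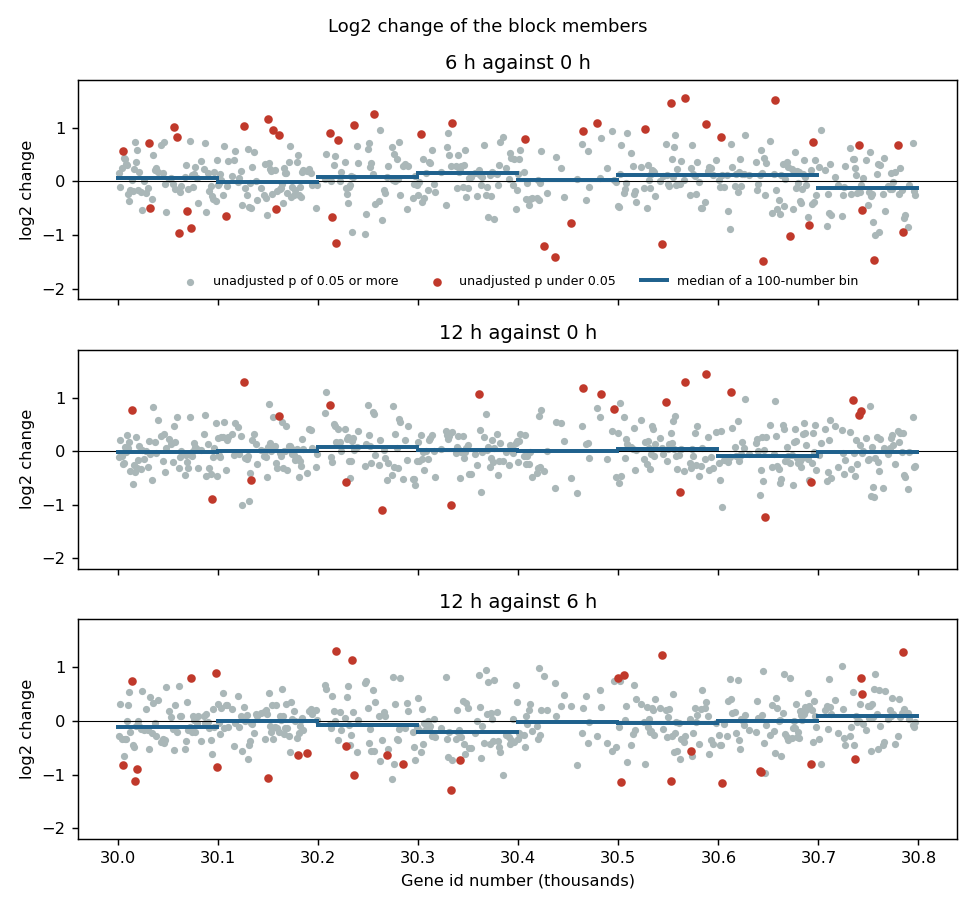
Log2 change of the 478 members against identifier number for 6 h against 0 h, 12 h against 0 h and 12 h against 6 h, on the log2(scaled coverage + 73) scale. Red points had an unadjusted limma p under 0.05, grey points did not, and blue lines are medians of bins of 100 numbers. Red points of both signs are mixed along the block, and 0 members passed after adjustment.

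Members with a mean of at least 730 read bases are described singly. Among them Zm00001d030465 had the lowest p on the higher side at 6 h. Its scaled coverage was 784, 268 and 606 read bases in the 0 h libraries, 1554, 1064 and 699 at 6 h and 956, 1483 and 1395 at 12 h. The 6 h values overlapped with 0 h, and all 12 h values lay above 0 h. Its log2 change was 0.95 (SE 0.32, limma adjusted p = 0.636) for 6 h against 0 h and 1.19 (SE 0.32, limma adjusted p = 0.744) for 12 h against 0 h.

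Zm00001d030005, the member of highest coverage, had 2334, 1884 and 2383 read bases at 0 h, 3085, 3545 and 3240 at 6 h and 1933, 2662 and 1191 at 12 h. Its 6 h libraries lay above all the others. The log2 change was 0.57 (SE 0.20, limma adjusted p = 0.666) for 6 h against 0 h and -0.82 (SE 0.20, limma adjusted p = 0.407) for 12 h against 6 h, and over the alternatives the adjusted p of the second ran from 0.0699 to 0.813.

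On the lower side at 6 h, Zm00001d030061 had 988, 1015 and 904 read bases at 0 h, 701, 516 and 259 at 6 h and 727, 1001 and 620 at 12 h. Its 6 h libraries lay below all 0 h libraries, and 12 h overlapped with both. The log2 change for 6 h against 0 h was -0.97 (SE 0.34, limma adjusted p = 0.649). Zm00001d030069 was also below 0 h in every 6 h library, with 1639, 1818 and 2095 against 2952, 2789 and 2451, and a log2 change of -0.55 (limma adjusted p = 0.667).

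At 12 h, Zm00001d030094 had 683, 639 and 340 read bases against 1207, 948 and 1024 at 0 h, without overlap. The log2 change was -0.90 (SE 0.32, limma adjusted p = 0.915). Zm00001d030228 had 1132, 1966 and 1517 at 12 h against 2859, 1690 and 2450 at 0 h, which overlapped, with a log2 change of -0.58 (limma adjusted p = 0.915). Zm00001d030743 was the second on the higher side, after Zm00001d030465, with 1187, 1661 and 1229 at 12 h against 669, 1139 and 594 at 0 h, without overlap, and a log2 change of 0.75 (limma adjusted p = 0.915).

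Between 6 h and 12 h, Zm00001d030785 had the lowest p on the higher side, with 1623, 840 and 1307 read bases at 12 h against 597, 182 and 787 at 6 h and no overlap. Its log2 change was 1.29 (SE 0.34, limma adjusted p = 0.454), and its 0 h values of 651, 1093 and 1177 lay across both. Zm00001d030693 had 909, 1147 and 684 at 12 h against 1555, 1812 and 1486 at 6 h, a log2 change of -0.80 (SE 0.26, limma adjusted p = 0.546). None of these members passed the threshold in any comparison.

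**Figure D4:**
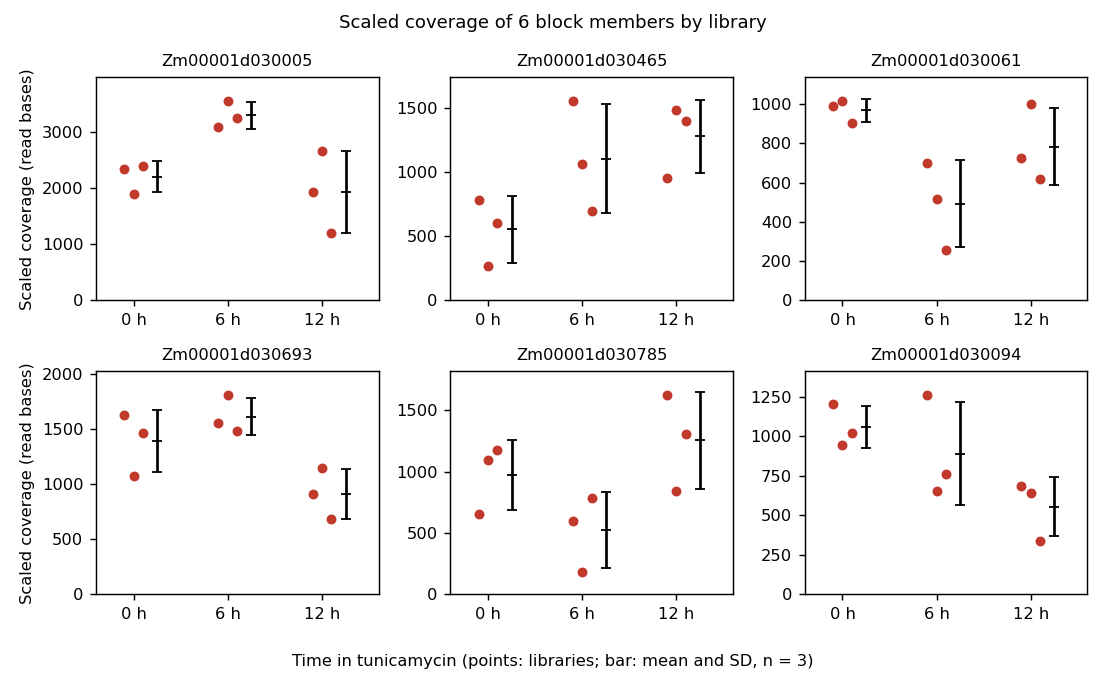
Scaled coverage in read bases of 6 members at 0 h, 6 h and 12 h. Points are libraries and bars are mean and SD (n = 3). Zm00001d030005 is highest in its 6 h libraries, between 3085 and 3545. Zm00001d030061 has its lowest mean at 6 h, with libraries between 259 and 701 that overlap with 12 h.

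Neighbouring members were related in level, and their changes were barely correlated. Over 304 pairs of members whose numbers differed by 1, the correlation of log2 levels was 0.23, against 0.20 over 29908 such pairs of other rows. At differences of 2, 5, 10 and 50 numbers it was 0.12, 0.07, 0.05 and 0.04 in the block, and 0.12, 0.07, 0.06 and 0.05 in other rows. Genes are not independent replicates, and pairs share libraries and depth, so these values are descriptions.

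For log2 changes, the correlation over the 304 adjacent pairs was 0.03 for 6 h against 0 h, -0.02 for 12 h against 0 h and 0.04 for 12 h against 6 h. Over adjacent pairs of other rows it was 0.04, 0.05 and 0.05. With each gene of a pair measured in separate libraries, so that no read enters both, the values in the block were -0.0012, -0.03 and 0.01, as means over 36 choices of libraries. Single choices for 6 h against 0 h ran from -0.11 to 0.09, which is a spread between choices that share libraries and pairs. The smallest correlation that 304 pairs could show was not computed, so a weak one is not excluded. In other rows the means were 0.0063, 0.0088 and 0.0096. Adjacent members changed in the same direction in 155 of 304 pairs (51.0%) at 6 h against 0 h, 148 (48.7%) at 12 h against 0 h and 160 (52.6%) at 12 h against 6 h, against 52.0%, 52.0% and 51.8% in other rows.

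The reproducible part of a single gene's own change sets the scale for these values. Between changes of the same member computed from separate libraries, the mean correlation was 0.07 for 6 h against 0 h, 0.0066 for 12 h against 0 h and 0.02 for 12 h against 6 h, and in other rows it was 0.02, 0.03 and 0.02. For 6 h against 0 h the 18 choices of libraries gave 0.03 to 0.13 in the block and 0.0037 to 0.02 in other rows. The choices share libraries, and no test of that difference was run.

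The longest stretch of consecutive numbers moving one way at 6 h was 6 genes, Zm00001d030004 to Zm00001d030009, with log2 changes of 0.25 to 0.57, of which 1 had an unadjusted p under 0.05. At 12 h against 6 h it was 7 genes, Zm00001d030015 to Zm00001d030021, with changes of -0.0078 to -1.11. Adjacent pairs were ranked by the smaller of both changes, among pairs of 1 direction whose members both had a mean of at least 730 read bases. Of 27 such pairs at 12 h against 0 h the first was Zm00001d030093 and Zm00001d030094, at -0.43 and -0.90, and of 29 at 12 h against 6 h it was Zm00001d030743 and Zm00001d030744, at 0.81 and 0.50. These stretches and pairs were picked for their size and carry no test. No adjacent pair of members was identical in all libraries, whereas 21 adjacent pairs of other rows were.

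**Figure D5:**
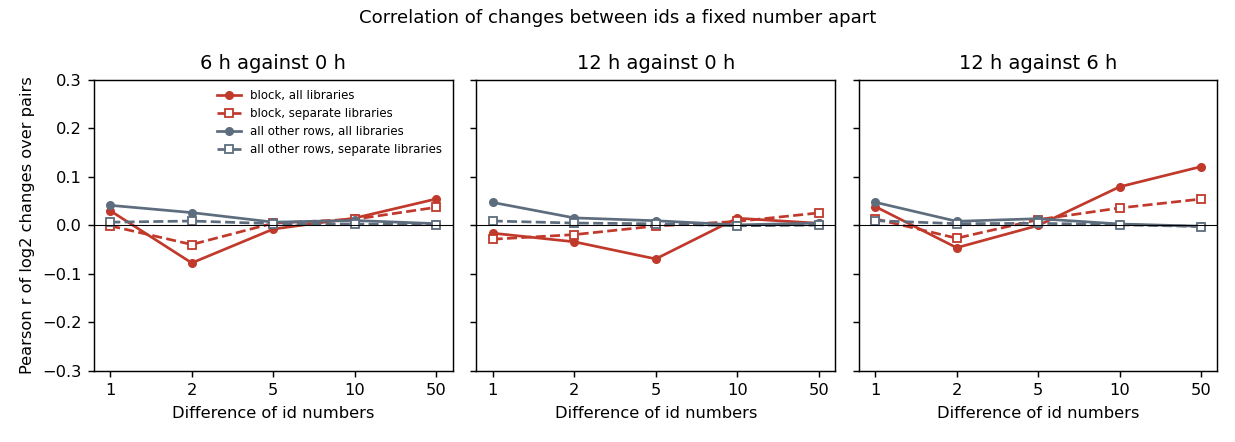
Pearson correlation, over pairs of genes, of log2 changes between identifiers whose numbers differ by 1, 2, 5, 10 or 50, for 3 comparisons. Filled circles use all libraries and open squares measure each gene of a pair in separate libraries, for the block (red, 267 to 304 pairs) and all other rows (grey, 28828 to 29908 pairs). The block scatters around 0 and lies between -0.08 and 0.12.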

How the data were processed

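The authors deposited 1 table of whole-number coverage signal per gene for 9 libraries, and 0 further columns. The tools named, per the submitters' processing notes, are Bowtie2 2.2.6, cutadapt 1.11, DESeq2 and MACS2, without their roles. The sources used here do not give the build, gene window, transposase shift or duplicate removal, and duplicates or wide windows would change the values. Coverage was taken as read bases because 73 was seen 5648 times against a mean of 45.6 for nearby values, and 16.6% to 22.6% of values above 0 were its multiples.

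Coverage was divided by trimmed-mean-of-M-values factors (trims of 30% by ratio and 5% by level). Limma 3.58.1 in R 4.3.3, moderated with trend and robust, was fitted to all 38703 rows and 9 libraries on log2(value + 73), which shrinks the fold changes of low genes, with no filter and two-sided Benjamini-Hochberg p-values (threshold 0.05). The pseudocount is 1 read unit. Steps were tested on simulated reads drawn with counting spread only, without further spread between libraries. That run cannot show what limma could detect in these libraries. Shares were compared by exact permutation over libraries. Named members came from the 5 highest and 5 lowest means, the 3 lowest p on each side of each comparison among members with a mean of at least 10 read units, the longest runs and the strongest adjacent pairs. The identifier runs, the stretches of other runs and the rows under 730 were added after the data had been seen. The planned lists by product name were not used, since 0 identifiers matched the RefSeq table. Members, lists and tests were chosen with earlier results of these data known.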

Additional observations from a re-analysis of the deposited data

Results flagged for a closer look

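Zm00001d030693 lay above its 0 h mean in every 6 h library and below it in every 12 h library. This difference between the times was screened over 25 items, the 24 named members and the block's share. The 0 h libraries themselves, at 1629, 1079 and 1464 read bases, overlapped with those of 6 h and with those of 12 h. For 6 h against 0 h the log2 change was 0.22 (limma adjusted p = 0.944), and for 12 h against 0 h it was -0.58 (limma adjusted p = 0.915). Mean scaled coverage was 1391 ± 282 read bases at 0 h, 1618 ± 171 at 6 h and 913 ± 231 at 12 h (SD, n = 3 each), so the change at 12 h differed from that at 6 h by -704.4 read bases. Tested across all rows, 12 h against 6 h gave a limma adjusted p of 0.546 for this gene, from 0.42 to 0.818 over the alternatives. It had been named for a low p in that comparison, which favours this shape.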

How the results depend on the processing

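The count of members called by limma was 0 in each comparison under pseudocounts of 1 and 10, both other scalings, the minimum mean, the replicate block and without each library in turn. Over all rows it was 0 as well in nearly all of these. For 6 h against 0 h, 1 row was called with the replicate block and 1 without 6 h replicate 1. For 12 h against 6 h, 2 rows were called without 6 h replicate 2. In the 22 pairings of a gene with the comparison that named it, chosen for low p or strong pairs, none of 330 alternative log2 changes turned sign or passed the threshold, with a lowest adjusted p of 0.0699. The minimum mean and the replicate block leave the log2 change itself as it was, so these could not turn its sign. Leaving out a library of the time outside the comparison hardly moved it. With the minimum mean of 10 read units, which left 174 members, 15, 8 and 13 had an unadjusted p under 0.05 at 6 h against 0 h, 12 h against 0 h and 12 h against 6 h. In the limma fit to all rows, members of that level were at 9.20%, 4.60% and 7.47%. Other rows of that level were at 6.93%, 5.93% and 7.45%. The median log2 change of the 174 members was -0.0437 for 6 h against 0 h, -0.0505 for 12 h against 0 h and -0.00517 for 12 h against 6 h. Over all members, with 1 library left out at a time, the median lay between 0.0373 and 0.0789 for 6 h against 0 h, between -0.0151 and 0.0285 for 12 h against 0 h and between -0.0493 and -0.00878 for 12 h against 6 h. The correlation of adjacent changes was -0.0699 for 12 h against 0 h and -0.0965 for 12 h against 6 h with a pseudocount of 1, -0.0290 for 12 h against 6 h with a pseudocount of 10, and 0.0301 for 12 h against 0 h with the minimum mean. With 1 library left out it lay between -0.0692 (without 6 h replicate 2) and 0.0780 for 6 h against 0 h. The range of the share over times was 0.0216 points with the minimum mean (exact permutation p = 0.171, adjusted 0.267), and 0.0386 to 0.0580 with 1 library left out, where 2 of 9 adjusted p were under 0.05. Deviations of same-numbered libraries correlated between -0.0184 and 0.00931 across genes, and those of other-numbered libraries between -0.00748 and 0.0131. No shared effect of the replicate number was thus seen. Whether same-numbered libraries came from the same plants or pools is not known from the labels. Permuted within replicate numbers as a replicate block, the range of 0.0485 points had an exact permutation p of 0.0278 (adjusted 0.111), and each pair of times 0.25, the smallest possible. The cause was not tested. The median member held 8.07 read units; the part of depth in the absence of calls was not tested.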
